A study of Homo sapiens with 4 samples.

Results

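The change described here is that of wild-type H9 human embryonic stem cells between day 0 and day 6 of a differentiation protocol towards dopaminergic neurons. It rests on 2 of the 4 libraries of the series, the wild-type library of each day. H9 is an established pluripotent cell line. The series also profiled cells with a SIRT1 deletion at both days, and its title asks how this NAD-dependent protein deacetylase bears on the metabolism and differentiation of stem cells. RNA was captured by its 3′ end in droplets, and each captured molecule was counted once by its unique molecular identifier (UMI). Per the labels, the culture substrate was Geltrex, the maintenance medium mTeSR1 and the dissociation reagent TrypLE. The sources used here do not name the patterning factors added up to day 6. Nothing in the labels says whether the knockout cells are 1 clone.

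With 1 library per day there is no replicate check, so no test was made and no p-value is given. Every ratio compares these 2 libraries, and the interval in parentheses after it is an exact 95% interval that covers counting error only. A cell was a barcode with at least 4000 UMIs, at least 1000 genes and at most 20% of its UMIs from mitochondrially encoded (MT-) genes. This left 5533 cells at day 0, with a median of 12645 UMIs and 3976 genes, and 5372 cells at day 6, with a median of 8590 UMIs and 2689 genes. The 2 libraries shared 8 barcodes among these cells. For each library the counts of its cells were added up, and levels are CPM, the counts of a gene per 1e6 UMIs outside MT- and ribosomal protein genes, 51653219 UMIs at day 0 and 33812307 at day 6. The left-out genes moved themselves, MT- genes from 5.49% to 2.16% of UMIs and ribosomal protein genes from 24.2% to 32.1%. In such sums, fewer cells with a transcript and less of it per cell cannot be told apart, and shares of cells are given beside the sums where they help.

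Pluripotent cells are held in their state by a small circuit of transcription factors around POU5F1, NANOG and SOX2, together with NODAL and FGF signals. Protocols towards midbrain dopaminergic neurons commonly block NODAL and BMP signals, activate the Hedgehog pathway and raise WNT signalling, so that neural progenitors take on the character of the floor plate, the ventral midline of the neural tube that FOXA2 and later LMX1A mark. Pluripotent cells are also known for rapid glycolysis and a short G1 phase, and metabolism and the cell cycle are remodelled as they differentiate.

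Genes at 10 CPM or more at either day were taken as measured. A gene was called higher or lower at day 6 where its ratio was 2-fold or more. Of 10433 measured genes, 744 (7.13%) were higher, 1846 (17.7%) were lower and 7843 were neither. These percentages are the background for every count that follows. The median log2 ratio over all measured genes was -0.26, with 5th and 95th percentiles of -1.74 and 1.23, so list medians are given beside -0.26. Past 4-fold there were 221 higher and 337 lower genes, and past 16-fold 41 and 49. The higher genes held 4.95% of scaled UMIs at day 0 and 16.2% at day 6, while the lower genes went from 14.1% to 5.04%.

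The balance of higher and lower calls depended on scaling. Higher genes were 28.7% of the calls here, 54.6% with the trimmed mean of M-values (TMM), at 1247 higher and 1037 lower, and 58.1% with the median of ratios, at 1323 and 953. The median log2 ratio was 0.06 and 0.10 under these scalings, against -0.26. Each of these scalings shifts every log2 ratio upwards by the same amount. All 744 higher genes therefore had to stay higher under both, and no lower gene could become higher. With TMM 1037 of the 1846 lower genes remained lower. Chromosome by chromosome, medians of the 10065 genes measured in both genotypes lay within -0.08 and 0.10 of the median of all of them, from -0.34 on chromosomes 2, 4 and 15 to -0.16 on chromosomes 19 and X.

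**Figure D1:**
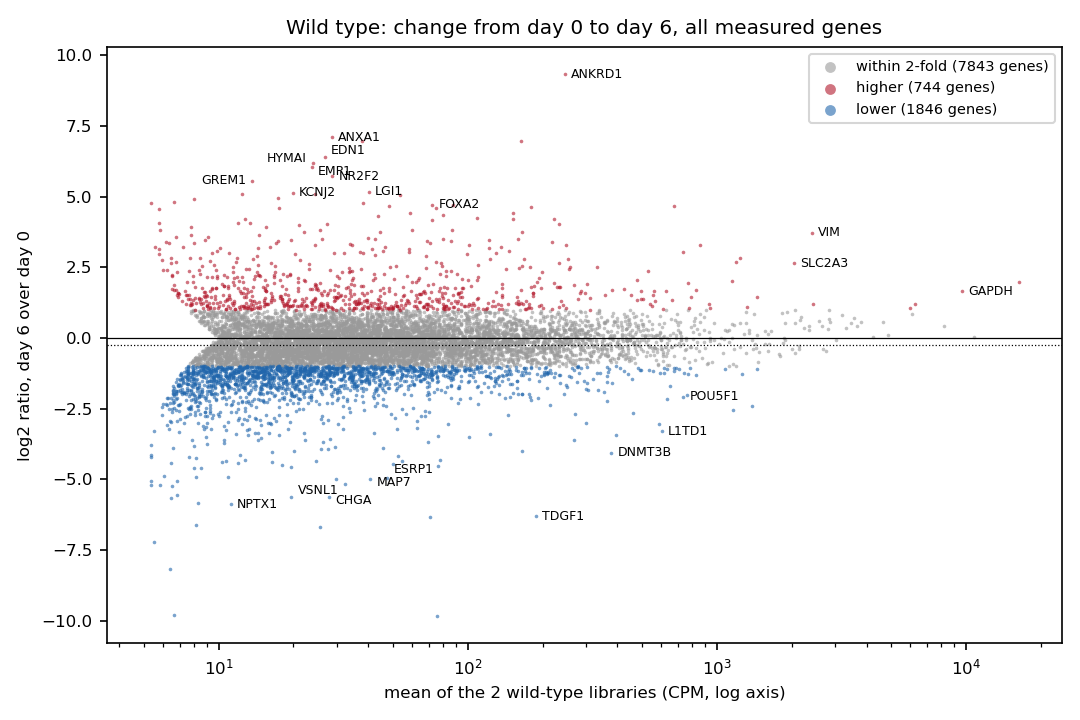
Log2 ratio of day 6 over day 0 in wild type (vertical axis) against the mean CPM of the 2 libraries (log axis), 1 point per measured gene, red for 744 higher, blue for 1846 lower and grey for 7843 neither. The dotted line is the median of -0.26, ANKRD1 stands at 9.33 and TDGF1 at -6.32.

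Beside ANKRD1 and ANXA1, which are taken up with the signalling genes, the highest ratios at 20 CPM or more included HYMAI, from 0.639 to 47.4 CPM, EMP1, an epithelial membrane protein, from 0.697 to 46.6 CPM, LGI1, a secreted neuronal protein, from 2.17 to 78.1 CPM, and KCNJ2, a potassium channel, from 1.08 to 38.6 CPM. HYMAI is a non-coding RNA that lies in the PLAGL1 locus, so its reads may not be separable from those of PLAGL1. Among the lowest were 3 genes known from neurons and neuroendocrine cells. NPTX1, neuronal pentraxin, went from 22 to 0.355 CPM, 61.9-fold lower, CHGA, chromogranin A, from 54.7 to 1.09 CPM, 50.0-fold lower, and VSNL1, a calcium sensor, from 62.7 to 1.72 CPM, 36.5-fold lower. MAP7, which binds microtubules, was 31.7-fold lower.

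The labelled state of the cells was checked against marker genes. At day 0 pluripotent markers added up to 6409 CPM, and floor plate markers to 11.4 CPM. At day 6 the pluripotent sum was 1404 CPM, the neural progenitor sum was 1312 CPM against 728 at day 0, and the floor plate sum was 154 CPM. That last sum rested on FOXA2, the only one of 10 floor plate markers above 10 CPM: SHH stood at 0.946 CPM and LMX1A at 0.858. PAX6 and SOX1, markers of neuroectoderm, were at 0.444 and 0.414 CPM at day 6 and below 1 CPM at day 0. Neuron markers summed to 363 CPM at day 0 and 276 at day 6. Surface ectoderm and amnion markers summed to 1460 and 2287 CPM. Keratins of simple epithelia made up nearly all of it: KRT8 was higher, from 375 to 947 CPM, KRT18 stood at 865 and 1003 CPM and KRT19 at 182 and 325 CPM, while KRT7 was lower, from 31.4 to 1.48 CPM. TP63 was at 0 counts at both days, and KRT5 and VTCN1 at 0 at day 6. Endothelial and blood markers summed to 40.3 and 12.7 CPM. Of 12 neural progenitor markers 6 were measured and 3 were higher, SOX21, CDH2 and PTN. SOX2, at 360 and 640 CPM, made up the largest part of that sum and stayed within 2-fold, and FABP7 stood at 46.2 and 31.1 CPM. FOXA2 UMIs were in 26.9% of thinned day 6 cells, with 3.15% from free RNA, and the other 9 floor plate markers were below 10 CPM.

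Cell by cell, the sum of the pluripotent markers was lower in nearly the whole population. Not every marker took part: of 10 measured, 7 were lower. NANOG, UTF1 and LIN28A, the last at 752 and 512 CPM, stayed within 2-fold. With every cell thinned to 4000 UMIs, the median cell held 18 pluripotent marker UMIs at day 0 and 3 at day 6. The 5th to 95th percentile ran from 8 to 27 at day 0 and from 0 to 9 at day 6, so the ranges of the 2 days met only at their edges. Neural progenitor markers overlapped widely, with medians of 2 and 3 UMIs, and 97.0% of cells at day 0 and 70.6% at day 6 had no floor plate marker UMI.

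**Figure D2:**
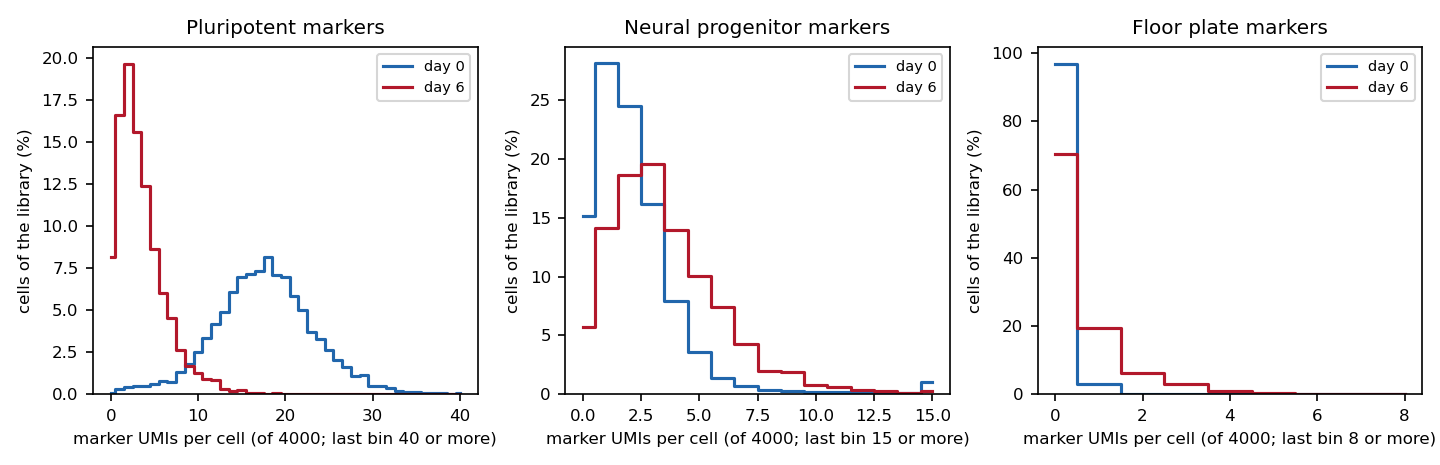
Share of cells (vertical axis, % of a library's cells) by the number of UMIs of pluripotent, neural progenitor and floor plate markers per cell after thinning to 4000 UMIs (horizontal axes, UMIs per cell), day 0 in blue and day 6 in red. The pluripotent curves are largely apart, with medians of 18 and 3, and the other pairs overlap.

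Transcription factors were followed first. Of 652 genes in 31 factor families, 239 were measured, and 53 (22.2%) were higher and 40 (16.7%) lower, against 7.13% and 17.7% of all measured genes. Their median log2 ratio was 0.04. The family of HES, HEY and ID genes, which restrain neurogenic factors, had 8 of 11 measured members higher, 1 lower and a median of 1.76. No HOX, GATA, LIM homeobox or DLX and MSX gene was measured at all.

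Among pluripotency factors 0 of 16 measured members were higher and 8 were lower, with a median of -1.01. With TMM the counts were 1 higher, SOX2 by its ratio, and 6 lower. POU5F1 (ENSG00000204531, chromosome 6, 31164337 to 31180731, minus strand), the central factor of the circuit, stood at 1191 CPM at day 0 and 281 CPM at day 6, 4.23-fold lower (4.14 to 4.32). NANOG was at 71.8 and 49.3 CPM, a decrease of 1.46-fold (1.38 to 1.54) that did not reach 2-fold. SOX2, which pluripotent and neural progenitor cells both use, was at 360 and 640 CPM, 1.78-fold above day 0. The 3 core factors therefore took different courses, 1 lower and the others within 2-fold.

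Some losses outside the core were larger than that of POU5F1. ZSCAN10, a zinc finger factor of pluripotent cells, went from 100 to 5.56 CPM, 18.0-fold lower (15.6 to 20.9). FOXD3, a repressor of pluripotent and neural crest cells, went from 12.8 CPM to 0.0296 CPM, which was 1 count, at a ratio with an interval of 77.4-fold to 17116-fold lower. ZFP42 (REX1), known from naive pluripotent cells, was 3.80-fold lower, from 110 to 29 CPM. Beside the factors, the NODAL co-receptor TDGF1 (chromosome 3, 46574534 to 46582463) was at 371 CPM and 4.61 CPM, 80.3-fold lower (68.6 to 94.7), the lowest ratio at 20 CPM or more once antisense and LINC-named genes are left out.

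Shares of cells told the factors apart further. After thinning, 94.2% of cells at day 0 and 36.4% at day 6 held a POU5F1 UMI, where free RNA, if it made up 10% of each cell, would yield 29.6% and 7.49%. Without thinning the shares were 98.8% and 52.3%. A TDGF1 UMI was found in 60.6% and 0.707% of cells, with 8.06% and 0.140% from free RNA. A SOX2 UMI was found in 62.1% and 75.8%. At day 6 a POU5F1 UMI was thus still found in many cells, and a TDGF1 UMI in few.

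Factors that were higher came from several developmental families. NR2F2 (COUP-TFII), an orphan nuclear receptor, had the highest ratio of all factors, from 1.06 to 56.1 CPM, 52.7-fold (40.3 to 70.2). SP5, a zinc finger target of WNT signalling, went from 3.12 to 104 CPM, 33.5-fold higher (28.6 to 39.5). FOXA2 (ENSG00000125798, chromosome 20, 22581005 to 22585455, minus strand), the pioneer factor of floor plate and endoderm, went from 5.34 to 139 CPM, 26.0-fold higher (23 to 29.5). Endoderm is the other lineage that FOXA2 marks, and the other endoderm markers summed to 7.53 CPM at day 0 and 20 CPM at day 6. CXCR4, a chemokine receptor that other cells use too, carried most of that sum, from 1.45 to 16.2 CPM, and was the only marker of the list called higher. CER1, an antagonist of NODAL, stood at 0.484 and 1.72 CPM, SOX17 and GATA4 were at 0 counts at day 6 after 0.136 and 0.310 CPM, and TTR was at 0 at both days.

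PROX1, a homeobox factor of neural progenitors among other cells, rose 16.5-fold from 3.12 to 51.3 CPM, and the homeobox gene IRX1 15.9-fold from 2.50 to 39.7 CPM. ZEB2, a repressor of the epithelial state that also acts in neural development, rose 14.0-fold (12.6 to 15.5), from 8.0 to 112 CPM. Of the pan-neural progenitor factors 6 of 11 measured members were higher and 2 lower, with a median of 1.25. SOX21 stood at 3.39 and 25.2 CPM, ID4 at 11.6 and 126 CPM and MEIS2 at 1.51 and 10.4 CPM.

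Regional identity was thin at day 6. Of 20 forebrain and eye-field factors only OTX2 and HESX1 were measured, OTX2 at 50.4 and 27.2 CPM and HESX1 at 12.9 and 7.07 CPM, both within 2-fold. Of the floor plate and midbrain factors FOXA2 and OTX2 were measured, and EN1, a midbrain factor, reached 2.45 CPM. Of the hindbrain and HOX factors IRX3 and OLIG2 were measured, IRX3 3.34-fold higher, from 3.0 to 10.0 CPM, while GBX2 stood at 9.26 CPM, just under the level. Of 24 neurogenic and neuronal factors only TCF4 was measured, at 155 and 127 CPM, and NEUROG2 had 0 counts at both days. No mesoderm or endoderm factor of the list reached 10 CPM, and TBXT (brachyury) had 0 counts at day 6.

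Among placode and crest factors PAX3 rose from 0.639 to 10.9 CPM, 17.0-fold (11.9 to 25.1). In that list 2 of 6 measured members were higher and 1, FOXD3, was lower, and among amnion, trophoblast and surface ectoderm factors 1 of 2 was higher. SOX10, the defining factor of migrating crest cells, was at 1.20 and 1.06 CPM. Factors lost beside the pluripotency list included NFE2L3, a stress-response relative of NRF2, which was 20.1-fold lower (148 to 7.36 CPM), and FOXH1, the DNA-binding partner of SMAD2 in NODAL signalling, which was 5.89-fold lower (65.5 to 11.1 CPM). ZIC2 and ZIC5, zinc finger factors of early neurectoderm and pluripotent cells, were 3.94-fold and 5.64-fold lower.

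The AP-1 and immediate early list moved further than most. AP-1 is the dimeric factor of JUN and FOS proteins that responds to growth factors, stress and mechanical cues. Of 14 measured members 9 were higher and 0 lower, with a median of 1.67. JUN stood at 14.1 and 346 CPM, 24.6-fold higher (22.9 to 26.6), FOSL2 at 1.90 and 29.1 CPM, and JUND at 170 and 888 CPM. FOS, at 12 and 20.1 CPM, and EGR1, at 20.3 and 15.0 CPM, stayed within 2-fold. Some immediate early genes also respond to the dissociation of cells, and the part of that step in these values was not tested.

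**Figure D3:**
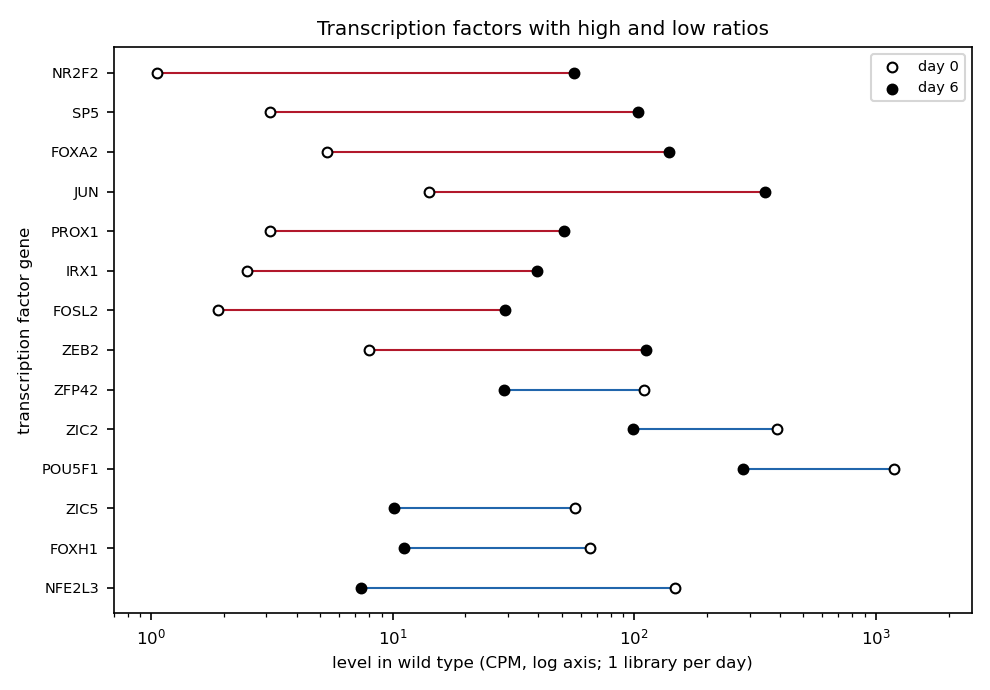
Levels of 14 of the 20 transcription factors with the highest and lowest ratios at 20 CPM or more (horizontal axis, CPM, log scale; open circles day 0, filled circles day 6; 1 library per day). NR2F2, at 1.06 and 56.1 CPM, is at the top and NFE2L3, at 148 and 7.36 CPM, at the bottom.

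Signalling genes were read by pathway, starting with NODAL, which keeps human pluripotent cells undifferentiated through SMAD2 and SMAD3. Of 10 measured members 2 were higher and 3 lower, with a median of -0.06 that was 0.23 with TMM. The lower members were the co-receptor TDGF1, the partner FOXH1 and SKIL, a feedback repressor of SMADs, at 105 and 38.4 CPM. NODAL itself was below the level at both days, at 1.53 and 0.0592 CPM. FST, the activin antagonist follistatin, was 18.5-fold higher (17.4 to 19.6), from 22.8 to 421 CPM, and SMAD3 5.09-fold, from 11.2 to 57.3 CPM. The co-receptor and the nuclear partner were thus lower, and an antagonist and a SMAD higher.

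In WNT signalling several feedback targets were higher, and no ligand reached the level. Of 16 measured targets and inhibitors 8 were higher and 3 lower, with a median of 0.86, whereas of 10 measured ligands and receptors 2 were higher and 1 was lower, with a median of 0.25. WNT5B stood at 5.34 and 1.83 CPM and WNT3 at 2.63 and 1.83 CPM. AXIN2, a negative regulator that WNT signals induce, stood at 13.7 and 34.4 CPM, 2.51-fold higher (2.28 to 2.76). NKD1, another induced inhibitor, went from 6.87 to 78.4 CPM, 11.4-fold, and the secreted antagonist DKK1 from 1.08 to 33.7 CPM, 31.1-fold. CCND1, the G1 cyclin, was 3.72-fold higher, from 127 to 474 CPM. Among receptors FZD2 was 3.41-fold higher, and the related receptor tyrosine kinases ROR1 and ROR2 moved in opposite directions, ROR1 from 72.0 to 14.6 CPM and ROR2 from 6.91 to 26.4 CPM.

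SP5 had the highest ratio of the WNT targets, and its promoter window is shown because WNT signals act on genes through TCF/LEF proteins. The stretch of RefSeq's window (build GRCh38.p14) that lies outside annotated exons is printed 5′ to 3′, with the match to CTTTGAT on either strand in capitals.
SP5, chr2:170715087-170715336, plus strand: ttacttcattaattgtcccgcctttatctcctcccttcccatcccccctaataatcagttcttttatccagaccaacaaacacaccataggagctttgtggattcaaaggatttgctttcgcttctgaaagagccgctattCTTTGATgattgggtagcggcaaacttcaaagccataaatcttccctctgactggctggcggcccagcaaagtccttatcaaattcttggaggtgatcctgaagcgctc
The 250 bases before the start held CTTTGAT in 1.16% of the 8286 measured genes with a window and in 1 of 10 measured WNT targets with one. A match is a description of the letters and not of binding.

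The Hedgehog pathway, through which SHH patterns the floor plate, showed 1 of 7 measured members higher and 2 lower. PTCH1, the receptor and a feedback target of the pathway, was 4.76-fold higher (4.40 to 5.15), from 16.1 to 76.7 CPM, and a UMI of it was found in 4.50% and 18.7% of thinned cells (free RNA 0.237% and 1.88%). The transcription factor GLI1, which is also induced by the pathway in many cells, was 2.25-fold lower, from 10.3 to 4.58 CPM, and GLI2 3.52-fold lower, from 29.8 to 8.46 CPM. GLI3 stood at 31.7 and 59.4 CPM, within 2-fold. PTCH1 and GLI1, 2 readouts of one pathway, therefore moved in opposite directions.

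Of the BMP pathway and ID genes 7 of 15 measured members were higher and 0 lower, with a median of 0.51. BMP4 went from 3.66 to 93.4 CPM, 25.5-fold (22 to 29.7), and the antagonist gremlin, GREM1, from 0.561 to 26.8 CPM, 47.7-fold (33.0 to 71.7). The ID genes, common targets of BMP receptors, differed among themselves: ID4 was 10.9-fold higher, ID2 2.38-fold and ID1 2.13-fold, and ID3, at 268 and 253 CPM, were close.

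In the TGF-beta and matrix-bound list the called members were all higher. Of 10 measured members 6 were higher and 0 lower, with a median of 1.39. The matricellular genes CCN1 and CCN2, known targets of YAP and TGF-beta signals, were 18.4-fold and 5.92-fold higher. ANKRD1 (chromosome 10, 90912096 to 90921276, minus strand), a cardiac ankyrin repeat gene and another known YAP target, had the highest ratio of all named genes, from 0.755 CPM to 491 CPM, 650-fold (475 to 915). Its day 0 level rested on few cells: 0.145% of thinned cells held a UMI, where free RNA would yield 0.111%. Its log2 ratio was 9.33, and 8.48 with cells thinned to 4000 UMIs. ANXA1, an annexin, followed at 140-fold, from 0.407 to 56.7 CPM, and EDN1, the peptide endothelin, at 85.3-fold, from 0.620 to 52.9 CPM.

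These genes were found in different shares of cells. At day 6 an ANKRD1 UMI was found in 49.4% of thinned cells (free RNA 9.18%) and an ANXA1 UMI in 8.0% (1.67%). Among cells with a FOXA2 UMI, 4.50% (3.49 to 5.70) also held ANXA1, against 9.29% (8.40 to 10.2) of cells without one. Among cells with POU5F1, 12.3% held PTCH1, against 22.3% of those without. FOXA2 was in 16.4% of cells with POU5F1 and 32.9% of cells without, and in 50.6% of cells with BMP4 against 22% of cells without. ANKRD1, in contrast, was in 62.0% of FOXA2 cells and 44.8% of the others. At this depth a missing UMI is not a missing transcript, and these shares, whose intervals count cells of 1 library, describe day 6 only.

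Mesenchymal markers moved with this group of genes. Their sum was 205 CPM at day 0 and 1116 CPM at day 6, with 3 of 4 measured markers higher, and the defining markers LUM and POSTN at 0 counts at day 6. COL1A1 carried 562 CPM of that sum, up from 99.4 CPM. Without the cells that held 4 or more mesenchymal marker UMIs after thinning, 50 cells (0.904%) at day 0 and 1488 (27.7%) at day 6, ANXA1 had a log2 ratio of 7.14 against 7.09, FOXA2 of 4.73 against 4.70 and POU5F1 of -2.01 against -2.08. The ratio of COL1A1 was smaller (1.88 against 2.50), which follows from the selection, because COL1A1 is one of the markers that chose the cells. The ratios of GREM1 (4.55 against 5.55) and EMP1 (5.21 against 6.04) were also smaller, and that of ANKRD1 was larger, at 11.27 against 9.33. At day 0 without thinning, few cells held ANXA1 (0.271%), ANKRD1 (0.217%), GREM1 (0.398%) or EMP1 (0.614%), so these ratios rest on few day 0 molecules. They do not show whether a gene lies outside the cells left out. At day 6 ANXA1 was in 13.7% of cells with the marker TAGLN and 4.58% of cells without, and ANKRD1 in 62.7% and 41.5%. That choice of cells was made after seeing the data.

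FGF signals support both pluripotent and neural cells. Of 19 measured FGF ligands, receptors and ERK feedback genes 5 were higher and 1 lower, with a median of 0.36. FGFBP3, a carrier that releases FGFs from the matrix, went from 239 to 752 CPM, and the feedback inhibitors SPRY2 and DUSP4 were 2.34-fold and 2.96-fold higher. FGF2 stood at 93.6 and 53.2 CPM and its receptor FGFR1 at 456 and 420 CPM, within 2-fold. FGF8, the ligand of the midbrain and hindbrain boundary, stayed below 1 CPM.

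Of 17 measured Notch genes 4 were higher and 1 lower. The effectors HES1 and HES4 were 3.40-fold and 10.4-fold higher, HES4 from 12.5 to 129 CPM, and HEY2 was 19.1-fold lower, from 10.2 to 0.532 CPM. NOTCH1 stood at 56.1 and 53.1 CPM. Among 10 measured genes of retinoic acid handling, the binding protein CRABP2 was 3.85-fold higher, from 91.6 to 352 CPM, and CYP26A1, the enzyme that degrades retinoic acid and is induced by it, was 3.07-fold lower. In the insulin-like growth factor list IGFBP5 went from 13.5 to 292 CPM, 21.6-fold (20 to 23.3), and the receptor IGF1R stayed at 88.3 and 114 CPM.

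Guidance and peptide signals were mixed. Of 21 measured ephrins, semaphorins, netrins and slits 7 were higher and 6 lower, with a median of -0.33. SLIT2, a floor plate repellent of axons, went from 6.1 to 83.0 CPM, 13.6-fold (12.1 to 15.3), NRP2 from 80.1 to 433 CPM, and UNC5D was 12.2-fold lower, from 26.6 to 2.19 CPM. Of 11 measured neurotrophic and neuropeptide genes 6 were higher and 3 lower. VGF rose 9.04-fold to 220 CPM, while the galanin gene GAL fell 8.22-fold, from 149 to 18.2 CPM.

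Among adhesion genes the epithelial cadherin was lower and the neural cadherin higher, an exchange known from epithelial cells that change state. CDH1 (E-cadherin; chromosome 16, 68737225 to 68835548) went from 129 to 10.1 CPM, 12.8-fold lower (11.5 to 14.3), and CDH2 (N-cadherin) from 46.8 to 137 CPM, 2.92-fold higher (2.78 to 3.07). The intermediate filament gene VIM rose 13.1-fold, from 343 to 4490 CPM, and its UMIs were in 51.7% of thinned cells at day 0 and 99.3% at day 6, where free RNA alone would yield 9.30% and 62.7%. CLDN7, a claudin of tight junctions, fell 20.5-fold, and ESRP1, which regulates splicing in epithelia, 31.2-fold. Over the list 10 of 20 measured members were lower and 4 higher, with a median of -1.0. Of 23 measured laminins, collagens and related genes 7 were higher and 0 lower, among them FN1 (fibronectin), from 22.8 to 307 CPM, 13.5-fold, COL2A1, 10.9-fold, and SPP1 (osteopontin), 6.96-fold.

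**Figure D4:**
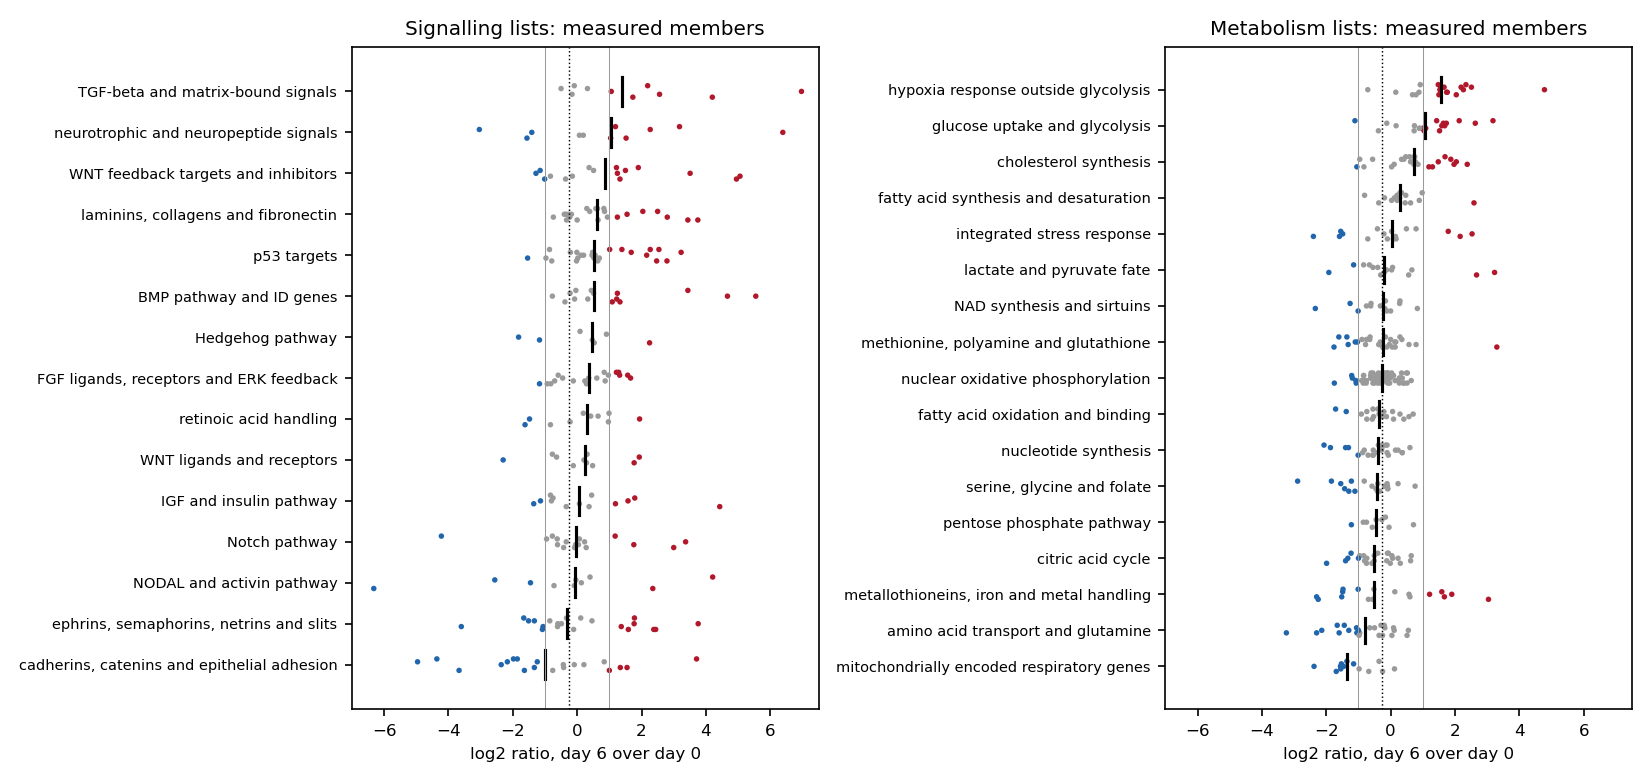
Log2 ratio of day 6 over day 0 for each measured member (points) of the signalling lists (left) and metabolism lists (right), ordered by their median (black bar); red is 2-fold or more higher, blue 2-fold or more lower, and the dotted line is the median of all genes, -0.26. Hypoxia and glycolysis lists stand to the right, with medians of 1.56 and 1.06, and mitochondrially encoded genes to the left, with -1.36.

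Among metabolism genes those of glycolysis, the hypoxia response and cholesterol synthesis were higher more often than all genes, and mitochondrially encoded, amino acid transport and serine and folate genes were lower more often. Of 20 measured genes of glucose uptake and glycolysis 12 were higher and 1 lower, with a median of 1.06, and their summed level went from 10823 to 29075 CPM. SLC2A3 (GLUT3; chromosome 12, 7919230 to 7936275, minus strand), a high-affinity glucose transporter, went from 570 to 3531 CPM, 6.20-fold (6.12 to 6.27). Its near-identical neighbour SLC2A14 was counted at 2.01 and 18.3 CPM, and reads of the pair may have been split. SLC2A1 (GLUT1) was 2.87-fold higher, GAPDH 3.11-fold, from 4714 to 14653 CPM, and PKM 3.20-fold. PFKFB4 and PFKFB3, which set the level of an activator of phosphofructokinase, were 4.38-fold and 3.31-fold higher.

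Lactate genes moved in both directions. LDHA, which turns pyruvate into lactate, went from 326 to 2066 CPM, 6.35-fold (6.24 to 6.45), and its UMIs were in 54.8% of thinned cells at day 0 and 94.8% at day 6 (free RNA 9.94% and 39.9%). The lactate exporter SLC16A3 (MCT4) was 9.38-fold higher, from 26.3 to 246 CPM, and SLC16A1 (MCT1) was 2.23-fold lower, from 369 to 166 CPM. MPC1, a subunit of the carrier that brings pyruvate into mitochondria, was 3.79-fold lower, from 25.4 to 6.68 CPM. The list as a whole had 2 of 15 measured members higher and 2 lower, and its median of -0.20 was 0.10 with TMM and 0.14 with the median of ratios.

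The hypoxia response outside glycolysis was the metabolic list with the largest share of higher members, 13 of 19 measured and 0 lower, with a median of 1.56. NDRG1, a stress-responsive gene, went from 2.67 to 73.6 CPM, 27.5-fold (23.2 to 32.9). HILPDA, a lipid droplet protein that hypoxia induces, went from 77.0 to 440 CPM, P4HA1, a collagen prolyl hydroxylase, from 65.5 to 331 CPM, and ADM, adrenomedullin, from 26.7 to 128 CPM. VEGFA, the vascular growth factor, was 2.83-fold higher, at 92.0 CPM. CA9, a strongly oxygen-dependent carbonic anhydrase, stayed at 1.18 and 0.621 CPM, below the level. The oxygen level of the cultures is not stated in the labels.

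Hypoxia-inducible factors bind a core of ACGTG, so 2 windows that hold it are shown, LDHA and PGK1. PGK1, a glycolytic kinase, stood at 425 and 1149 CPM and was chosen after its values were seen. Capitals mark ACGTG on either strand, in the stretch of RefSeq's window (GRCh38.p14) outside annotated exons.
LDHA, chr11:18394313-18394387, plus strand: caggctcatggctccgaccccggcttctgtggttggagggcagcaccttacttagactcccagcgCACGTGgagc
PGK1, chrX:78103998-78104173, plus strand: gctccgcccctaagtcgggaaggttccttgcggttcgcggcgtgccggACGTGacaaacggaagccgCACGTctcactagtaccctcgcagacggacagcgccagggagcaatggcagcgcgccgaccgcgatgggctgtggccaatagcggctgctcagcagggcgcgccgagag
In LDHA the 2 matches, 1 on each strand, overlap as a palindrome. Over the 250 bases before the start, ACGTG was found in 24.5% of measured genes, in 8 of 14 hypoxia genes with a window (57.1%) and in 8 of 19 glycolysis genes (42.1%). It was in 25.8% of higher and 22.4% of lower genes overall. A core this short is frequent, and 18.7% of all 27305 windows in the table held it. Small lists varied, from 0 of 16 ephrin, semaphorin, netrin and slit genes with a window to the 8 of 14 hypoxia genes.

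Mitochondrially encoded genes were lower, and nuclear genes of oxidative phosphorylation mostly stayed within 2-fold. Of the 13 mitochondrially encoded respiratory genes 0 were higher and 8 lower, with a median of -1.36, and their sum went from 78088 to 32821 CPM of the scale that leaves them out. MT-ND3, a subunit of complex I, went from 9227 to 1769 CPM, 5.22-fold lower (5.17 to 5.26), and MT-CO3 fell 2.92-fold. The share of MT- UMIs per cell is also a measure of cell quality, and the part of quality in this change was not tested. Of 73 measured nuclear genes of oxidative phosphorylation 0 were higher and 5 (6.85%) lower, against 17.7% of all measured genes, and their median of -0.26 equalled that of all genes and was 0.03 with TMM. The 5 were NDUFB1 (3.35-fold lower, from 385 to 115 CPM), NDUFA8, NDUFB3, NDUFB6 and ATP5ME. In the citric acid cycle 0 of 24 measured members were higher and 5 (20.8%) lower, near the background, median -0.51, with IDH1, the cytosolic isocitrate dehydrogenase, 3.96-fold lower, from 254 to 64.1 CPM. Citrate synthase, CS, was at 133 CPM at both days.

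Among amino acid and folate genes the called ones were lower. In amino acid transport and glutamine use 0 of 24 measured members were higher and 10 lower, median -0.81. SLC38A1, a glutamine carrier, went from 313 to 71.3 CPM, SLC7A8 from 152 to 30.9 CPM and SLC1A3, a glutamate carrier, from 34.3 to 3.61 CPM. In serine, glycine and folate metabolism 0 of 20 were higher and 7 lower, median -0.44. GLDC, the glycine decarboxylase of pluripotent cells, was 7.45-fold lower (48.7 to 6.54 CPM), and PSAT1 2.93-fold, while SHMT2 stood at 264 and 191 CPM. With TMM these lists had 6 and 5 lower members. Of the methionine, polyamine and glutathione genes SAT1, which acetylates polyamines for breakdown and export, rose 9.87-fold (9.64 to 10.1), from 158 to 1558 CPM, against 6 lower members, among them CTH and CBS of the route to cysteine.

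Sterol genes went the other way. Of 25 measured genes of cholesterol synthesis and its control 8 were higher and 1 lower, with a median of 0.72, and 13 were higher with TMM. HMGCS1, an early enzyme of the pathway, went from 77.2 to 302 CPM, 3.91-fold (3.77 to 4.05). INSIG1, a feedback protein of sterol sensing, was 5.21-fold higher. Of 16 measured genes of fatty acid synthesis only SCD5, a desaturase, was called, from 4.10 to 24.8 CPM. FASN stood at 265 and 363 CPM. Of 19 measured fatty acid oxidation genes 0 were higher and 2 lower, ACADM 3.27-fold and CPT2 2.60-fold.

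In the pentose phosphate and nucleotide lists the share of lower members was nearer the background. The integrated stress response had larger shares of both higher and lower members than the background. The pentose phosphate pathway had 0 of 9 measured members higher and 1 lower, with a median of -0.45, and nucleotide synthesis 0 of 25 higher and 5 lower, with a median of -0.38. The integrated stress response, which lowers translation and raises amino acid supply genes, had 3 of 17 (17.6%) higher and 4 (23.5%) lower. All measured genes had 7.13% and 17.7%. Its median was 0.03, and -0.07 when scaled to total UMIs. Its members moved apart: CHAC1, a glutathione-degrading enzyme, was 5.28-fold lower, from 53.2 to 10.1 CPM, and PPP1R15A, which restores translation, rose from 15.3 to 88.3 CPM.

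Metal handling was split, with 5 of 17 measured members higher and 6 lower and a median of -0.52. MT2A rose 8.21-fold (8.02 to 8.41), from 159 to 1304 CPM, and MT1X 3.17-fold, from 301 to 956 CPM, while MT1H fell 4.94-fold, from 38.2 to 7.72 CPM. Metallothionein genes are close copies, and reads may have been split among them. In NAD metabolism 0 of 14 measured members were higher and 3 lower, with a median of -0.25 that was 0.04 with TMM. SIRT1 itself (ENSG00000096717, chromosome 10, 67884669 to 67918390, plus strand) stood at 45.9 CPM at day 0 and 46.0 CPM at day 6, a ratio of 1.00 (0.939 to 1.07). In the knockout libraries it was at 10.1 and 14.2 CPM. SIRT5 and SIRT7 were 2.40-fold and 2.01-fold lower in wild type, and NAMPT, the rate-limiting enzyme of NAD salvage, stood at 111 and 198 CPM.

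S phase genes were lower far more often than all genes, and G2 and M phase genes seldom passed 2-fold. Of 40 measured S phase genes 0 were higher and 22 (55.0%) lower, with a median of -1.13, and 15 were lower with TMM. PCNA (chromosome 20, 5114953 to 5126626, minus strand), the sliding clamp of DNA polymerase, went from 266 to 66.2 CPM, 4.01-fold lower (3.84 to 4.20), MCM5 of the replicative helicase from 128 to 33.7 CPM and CDC45 from 13.3 to 2.75 CPM. Of 52 measured G2 and M phase genes 0 were higher and only CENPE was lower, with a median of -0.12 that was 0.17 with TMM. TOP2A stood at 813 and 887 CPM and CDK1 at 119 and 166 CPM. BUB1 (-0.88), HMMR (-0.91) and KIF11 (-0.99) had log2 ratios just short of the call. Fewer thinned cells held their UMIs at day 6: TOP2A was in 78.5% and 57.7% of cells (free RNA 18.9% and 19.9%), BUB1 in 25% and 10.9% (2.50% and 1.51%) and PCNA in 53.3% and 14.3% (7.14% and 1.65%). No test compared the phases. Of 25 measured p53 targets 9 were higher and 1 lower, with a median of 0.52. CDKN1A (p21), an inhibitor of cyclin-dependent kinases, went from 64.0 to 444 CPM, 6.93-fold (6.68 to 7.2), with UMIs in 14.0% and 51.2% of thinned cells (free RNA 1.68% and 8.01%), and GDF15 from 40.3 to 180 CPM.

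E2F factors drive S phase genes through sites such as TTCCCGC, and 3 windows of lower genes that hold it are shown. HELLS stood at 395 and 167 CPM and BLM at 57.1 and 20.3 CPM, and both were chosen after their values were seen. Capitals mark the motif on either strand, with build and trimming as for the windows above.
PCNA, chr20:5126627-5126785, minus strand: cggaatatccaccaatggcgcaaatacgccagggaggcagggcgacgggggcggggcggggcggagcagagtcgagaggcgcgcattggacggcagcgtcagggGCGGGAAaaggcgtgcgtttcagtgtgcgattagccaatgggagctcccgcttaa
HELLS, chr10:94545538-94545787, plus strand: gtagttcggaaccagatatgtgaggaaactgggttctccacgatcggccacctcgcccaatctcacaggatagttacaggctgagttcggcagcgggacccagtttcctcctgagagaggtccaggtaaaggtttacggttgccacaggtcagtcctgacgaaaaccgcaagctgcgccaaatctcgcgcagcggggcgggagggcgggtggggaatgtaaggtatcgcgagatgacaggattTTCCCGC
BLM, chr15:90717142-90717326, plus strand: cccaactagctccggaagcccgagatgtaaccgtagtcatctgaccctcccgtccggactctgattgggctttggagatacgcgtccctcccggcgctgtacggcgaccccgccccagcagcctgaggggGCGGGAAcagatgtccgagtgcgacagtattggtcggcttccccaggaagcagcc
TTCCCGC was found in 14 of 31 S phase genes with a window (45.2%), against 9.57% of measured genes, 5.68% of higher and 9.99% of lower genes and 5.59% of all windows. Among the other motifs searched on both strands, TATAAA was in 10.8% of higher genes, 4.14% of lower genes and 4.65% of all measured ones. Of all windows 11.1% held it, close to the share of the higher genes.

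Of the chromatin and RNA regulators of pluripotent cells a few were far lower. DNMT3B, the de novo DNA methyltransferase, went from 713 to 42.9 CPM, 16.6-fold lower (15.8 to 17.6), and L1TD1, an RNA-binding protein of pluripotent cells, from 1096 to 111 CPM, 9.87-fold lower. DNMT3B UMIs were in 81.7% and 9.70% of thinned cells. Other regulators were close at both days: TET1 stood at 156 and 163 CPM and EZH2 at 71.5 and 72.3 CPM. Of 19 measured genes of the list 1 was higher and 5 lower.

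The same 2 days in the SIRT1 knockout are given side by side, with no test of the difference. There, 644 of 10389 measured genes were higher and 959 lower, with a median of -0.09. Of the 744 genes higher in wild type 401 were higher in the knockout (53.9% of the first list and 62.3% of the second), and of the 1846 lower in wild type 749 were lower there (40.6% and 78.1%). Of the 744 and 1846 genes, 663 and 1708 were also measured in the knockout, and the others count as not shared. Across the 10065 genes measured in both, log2 ratios had a Pearson correlation of 0.852 and a Spearman correlation of 0.821, a description across genes, which are not replicates. In the knockout FOXA2 went from 1.41 to 144 CPM, POU5F1 from 1291 to 260 CPM, ANKRD1 from 0.887 to 59.0 CPM and LDHA from 448 to 1423 CPM. CDKN1A was at 91.8 and 98.3 CPM there, and FABP7, a neural progenitor marker at 46.2 and 31.1 CPM in wild type, at 23.2 and 173 CPM. The S phase list had 4 of 40 measured members lower in the knockout, where 959 of 10389 genes were lower. In wild type it had 22 of 40, where 1846 of 10433 genes were lower. Its median was -0.36 in the knockout, against -0.09 over all genes, and -1.13 in wild type, against -0.26.

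**Figure D5:**
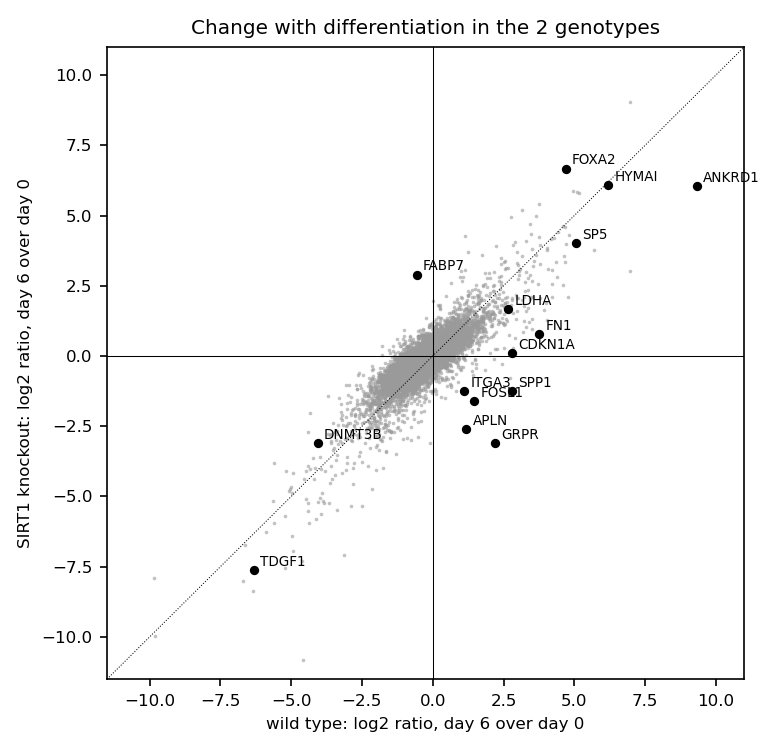
Log2 ratio of day 6 over day 0 in wild type (horizontal axis) and in the SIRT1 knockout (vertical axis) for the 10065 genes measured in both, with equal ratios on the dotted line and selected genes in black. The Pearson correlation was 0.852, and the medians were -0.26 in wild type and -0.10 in the knockout. SPP1, APLN, FOSL1, GRPR and ITGA3 lie at the lower right, higher in wild type and lower in the knockout.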

How the data were processed

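Per the file headers and the labels, the authors deposited raw UMI counts per gene and barcode of 10x Chromium 3′ libraries, not normalised, for every barcode and 36601 features. Cell Ranger 6.1.2 and GRCh38 are named in the submitters' processing notes, and the file headers name Cell Ranger 4. Further steps were not stated. Genotype and day were read from the labels, which give each group 1 library. The 2 wild-type libraries held 78774434 UMIs in all at day 0 and 54824132 at day 6, of which cells held 73424397 and 51424092, so 1 UMI is worth 0.0194 and 0.0296 CPM.

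Counts of cells were summed and scaled as the report says. Ratios have exact conditional binomial (Clopper-Pearson) 95% intervals, and log2 ratios a prior count of 0.5. Shares of cells used cells thinned to 4000 UMIs. The free RNA profile came from barcodes with 1 to 50 UMIs and was assumed to make up 10% of a cell. Doublets were not removed, and leaving out the largest 5% of cells was an alternative. The gene lists, factor families, named genes and alternatives were chosen with earlier results of these data known. Named genes were the 10 highest and 10 lowest ratios among all genes and among factors at 20 CPM or more, without antisense, clone-named, LINC and pseudogene names, and of each of 45 lists the first 3 genes and up to 6 with the largest ratios, plus SIRT1; some of them are not reported here. Promoter windows were the 250 bases before RefSeq starts, matched by symbol for 8286 of 10433 measured genes, and the printed stretches lie outside GENCODE 29 exons, which also gave gene positions, matched by identifier. The script was tested on simulated data. Work used Python 3.11.15, numpy 2.4.6, scipy 1.17.1, pandas 2.3.3, matplotlib 3.10.9, and for TMM factors edgeR 4.0.16 in R 4.3.3.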

Additional observations from a re-analysis of the deposited data

Results flagged for a closer look

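In 5 genes the change from day 0 to day 6 had opposite directions in the 2 genotypes, 2-fold or more higher in wild type and 2-fold or more lower in the knockout. They were 5 of the 663 genes higher in wild type and also measured in the knockout, where 959 of 10389 measured genes were lower. With 1 library per group the difference between genotypes was not tested. SPP1, which encodes osteopontin, had a log2 ratio of 2.80 in wild type, from 42.3 to 295 CPM, and of -1.26 in the knockout, from 38.1 to 15.9 CPM. APLN, the peptide apelin, had 1.19 in wild type (9.31 to 21.3 CPM) and -2.59 in the knockout (47.6 to 7.90 CPM). FOSL1, an AP-1 factor, had 1.47 (17.0 to 47.2 CPM) and -1.59 (23.5 to 7.79 CPM). GRPR, the receptor of gastrin-releasing peptide, had 2.20 (2.83 to 13.0 CPM) and -3.10 (11.5 to 1.33 CPM). ITGA3, an integrin subunit, had 1.11 (16.6 to 35.8 CPM) and -1.25 (18.2 to 7.66 CPM). In each of the 5 the level at day 6 was lower in the knockout than in wild type, and the levels at day 0 were close in SPP1 and ITGA3 and apart in APLN and GRPR. No gene was lower in wild type and higher in the knockout.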

How the results depend on the processing

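The level filter and the scaling moved the counts by over 1.5 times. The 744 higher and 1846 lower genes became 1247 and 1037 with TMM and 1323 and 953 with the median of ratios. Without the filter on low levels they were 3777 and 7311, and with a level of 50 CPM 371 and 606. Under the other alternatives (total UMIs, other limits on UMIs or mitochondrial share, no largest cells, thinning, subtracted free RNA, a prior count of 2, equal weights, no cells with mesenchymal markers) they ran from 553 to 772 and from 1793 to 1874. No gene changed from one call to the opposite, and no named gene changed sign past 2-fold. TMM, the median of ratios and total UMIs each shift every log2 ratio by the same small amount, so they could not have given an opposite call. Over the members measured under the main scaling, 11 list medians changed sign. With TMM they were those of neurogenic factors (0.01), NODAL (0.23), Notch (0.24), lactate and pyruvate fate (0.10), nuclear oxidative phosphorylation (0.03), methionine, polyamine and glutathione (0.05), NAD and sirtuins (0.04) and G2 and M phase (0.17). With the median of ratios they were neurogenic factors (0.05), NODAL (0.27), Notch (0.29), ephrins, semaphorins, netrins and slits (0.01), lactate (0.14), nuclear oxidative phosphorylation (0.07), methionine (0.09), NAD (0.09) and G2 and M phase (0.21). With cells of 8000 or more UMIs Notch (0.01) and G2 and M phase (0.06) changed. The insulin-like growth factor list (0.07) was at -0.02 with total UMIs, thinned cells and equal weights. The integrated stress response (0.03) was at -0.07 with total UMIs, -0.04 without the largest cells, -0.12 with thinned cells and with equal weights, -0.00 with free RNA subtracted and -0.14 without cells with mesenchymal markers. Under TMM, the median of ratios and total UMIs, the sign changes follow from the equal shift of every log2 ratio. For the other alternatives the cause was not tested.

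No paired analysis was possible because each group is 1 library. Day and library cannot be told apart, and neither can day and anything else that differed between the 2 cultures or their handling. Day 6 cells were shallower, and 1 UMI weighs 0.0296 CPM there against 0.0194 at day 0. Intervals count molecules, not cultures.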
